A study of Mus musculus with 4 samples.

Results

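Replication-dependent histone genes encode the bulk supply of the linker histone H1 and the core histones H2A, H2B, H3 and H4. They were taken here by symbol: H2ac, H2bc, H3c or H4c followed by a number, and H1f1 to H1f6. Synovium is the lining tissue of joints, and of 22180 genes measured in it 26 met this rule: 5 of type H1, 6 of type H2A, 8 of type H2B and 7 of type H4. No H3 gene had a probe set of its own, so H3 is described below through probe sets that several H3 genes share. The arthritic samples were 2 pools, each from 10 mice. These mice received intraperitoneal injections of 150 microlitres of serum from K/BxN mice on days 0, 2 and 7, and day 10 is labelled as their time of peak inflammation. The nonarthritic samples were 2 pools of 3 mice each that received saline, per the protocols. Their labels nevertheless list K/BxN serum, and a time point of day 0, so the day of sampling is unclear. All mice were male C57BL/6J aged 12 weeks, and synovium was dissected at the ankle. Autoantibodies in K/BxN serum cause arthritis in mice that receive it.

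As background, these genes are transcribed mainly while a cell copies its DNA, when new nucleosomes are needed. They lie in clusters, mostly lack introns, and most of their mRNAs end in a conserved stem-loop rather than a poly(A) tail. The protein encoded by Slbp binds that stem-loop, and the coactivator encoded by Npat drives their transcription. Replacement variants such as H2A.Z come from other genes that are transcribed outside DNA replication too. The kit used to label the RNA does not depend on a poly(A) tail, so transcripts without a tail are in reach of these arrays.

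Histone genes were mostly higher in arthritic synovium. Of the 26, 12 rose and 1 fell at an adjusted p under 0.05 (limma, Benjamini-Hochberg over all 22180 genes), where 8.72% of all genes rose and 6.62% fell. The 12 were spread over the types, with 3 each of H1, H2A, H2B and H4. The median log2 fold change (arthritic minus nonarthritic, on the scale of the log2 signal) was 0.68 over the 26 and 0.005 over all genes. Both arthritic pools read above both nonarthritic pools in 17 of the 26 and below them in 2, where 30.2% and 26.1% of all genes did. With the arrays centred on their medians, 14 rose and 1 fell. Among calls over all genes, rises made up 56.8%, and 67.1% after that centring. The pools are of whole tissue, so more cells in division and more histone RNA per cell cannot be told apart.

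The counts rest on each pool. H1f1, not called with all 4 pools, is among the genes that rose without arthritic pool 1. Without arthritic pool 1, 5 histone genes rose, and without arthritic pool 2, 1 did. Without nonarthritic pool 1, 7 rose, and without nonarthritic pool 2, 2 did. Rises fell off over all genes too: 1933 genes rose with all 4 pools, 232 without arthritic pool 1, 47 without arthritic pool 2, 637 without nonarthritic pool 1 and 144 without nonarthritic pool 2. In these fits the lone pool left in a group is assumed to vary like the pools of the other group. Arthritic pool 2 read higher than arthritic pool 1 for 19 of the 26 genes, and nonarthritic pool 1 read higher than nonarthritic pool 2 for 16. Over all 22180 genes these counts were 11016 and 11950.

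Many of these genes read close to background. The arrays gave no detection call, so olfactory receptor genes, which synovium is not known to use, served as a guide: the medians of 1105 of them ran from 4.60 to 5.15 and their 95th percentiles from 6.77 to 7.36 over the 4 arrays. Of the 26 histone genes, 11 had a mean above 6.98, the mean of those percentiles, and of these 7 rose and 1 fell. Among the genes as bright, 17% rose and 11.5% fell in a fit to them alone. In H1f3, H2ac20 and H4c9, as in H1f5 and H2ac15 below, both nonarthritic signals lay under the 95th percentile of their arrays, so their fold changes may be understated. Histone genes of a type are near-identical in their coding parts, so a probe set with 1 symbol may still read RNA of others.

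**Figure D1:**
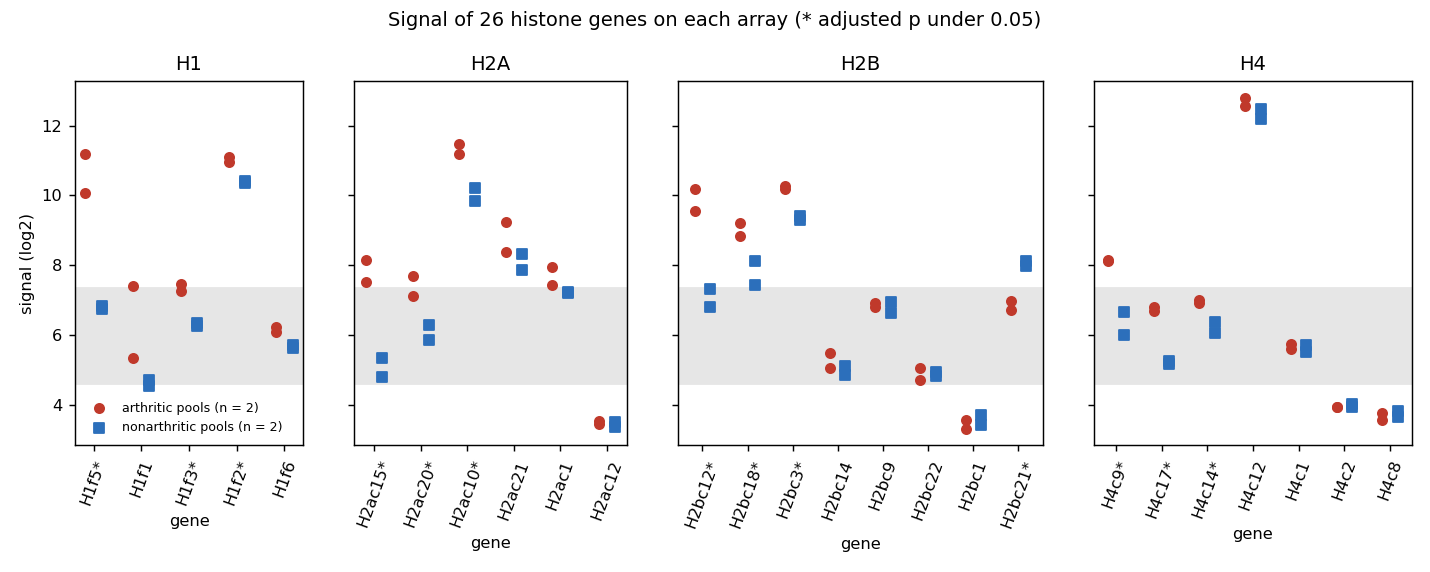
Log2 signal of the 26 histone genes on each of the 4 arrays, by histone type, with arthritic pools as red circles and nonarthritic pools as blue squares (n = 2 each). The grey band runs from the lowest median to the highest 95th percentile of olfactory receptor genes (4.60 to 7.36), and asterisks mark the 13 genes with an adjusted p under 0.05. H1f5, H2ac15 and H2bc12 show the widest distance between the groups, and H2bc21 is the gene with asterisk whose arthritic pools lie below.

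Linker histones seal the DNA where it enters and leaves the nucleosome. H1f5 had a log2 signal of 10.07 and 11.19 in arthritic pools 1 and 2, against 6.83 and 6.75 in nonarthritic pools 1 and 2. The arthritic pools stood more than 2-fold apart from each other, yet both lay far above the nonarthritic pools. H1f5 rose 14.3-fold (log2 fold change 3.84 ± 0.32 SE, limma adjusted p = 0.000357), the largest change of the 26. Its nonarthritic signals lay under the 95th percentile of olfactory receptor genes, so the fold change may be a lower bound. The call was kept without either arthritic pool and without nonarthritic pool 1, and was lost without nonarthritic pool 2 (limma adjusted p = 0.0552).

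The bases before the start of H1f5 are shown because H1 genes share a set of promoter motifs. In RefSeq's table (GRCm38.p6), they lie at chr13:21780626-21780875 on the minus strand, printed 5′ to 3′ along the gene, on which capitals mark motif matches on either strand. The motifs searched were the H1 box, spelled AAACACA, the CCAAT box, spelled by its own name, and the TATA box, spelled TATAAA.
H1f5: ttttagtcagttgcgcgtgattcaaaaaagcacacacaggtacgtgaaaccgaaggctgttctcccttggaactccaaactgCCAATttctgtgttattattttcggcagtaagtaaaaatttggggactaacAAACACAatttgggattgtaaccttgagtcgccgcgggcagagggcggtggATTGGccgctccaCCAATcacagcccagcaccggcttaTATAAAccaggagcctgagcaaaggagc
The H1 box began 117 bases before the start, the nearest CCAAT box 53 bases before it and the TATA box 28 bases before it.

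H1f3, another somatic H1 gene, read 7.27 and 7.45 in arthritic pools, against 6.35 and 6.25 in nonarthritic pools, and rose 2.08-fold (limma adjusted p = 0.0042). H1f2 read 10.96 and 11.10 in arthritic pools, against 10.42 and 10.36 in nonarthritic pools. It rose by less, 1.56-fold (log2 fold change 0.64 ± 0.16 SE, limma adjusted p = 0.0301). Neither gene's groups overlapped. Leaving out any of the 4 pools ended the call of both H1f3 and H1f2.

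H1f1 was the H1 gene with the least even pools. It read 5.35 and 7.42 in arthritic pools, against 4.55 and 4.72 in nonarthritic pools, with no overlap but a gap of more than 2 log2 units between the arthritic pools. Its log2 fold change of 1.75 ± 0.54 SE did not pass (limma adjusted p = 0.0675), and it was 2.79 without arthritic pool 1 (limma adjusted p = 0.0312). H1f6, the linker histone of the testis, read 6.10 and 6.24 in arthritic pools, against 5.64 and 5.71 in nonarthritic pools (limma adjusted p = 0.0737). With the arrays centred on their medians, H1f1 and H1f6 both passed (limma adjusted p = 0.0216 and 0.0472), and H1f6 also passed with quantile normalization again (limma adjusted p = 0.024).

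Histone H2A pairs with H2B in the nucleosome. H2ac15 read 7.52 and 8.14 in arthritic pools, against 5.35 and 4.79 in nonarthritic pools. It rose 6.77-fold (log2 fold change 2.76 ± 0.26 SE, limma adjusted p = 0.000521), from a nonarthritic signal close to the olfactory receptor medians, so that fold change may be a lower bound. H2ac10 read 11.19 and 11.47 in arthritic pools, against 10.21 and 9.84 in nonarthritic pools, a rise of 2.47-fold (limma adjusted p = 0.00362). In both genes every arthritic signal was above every nonarthritic signal. The call of H2ac15 was lost without arthritic pool 2 or nonarthritic pool 2, and that of H2ac10 was kept without nonarthritic pool 1 and lost without any other pool.

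On chromosome 3, H2ac20 read 7.11 and 7.68 in arthritic pools, against 6.29 and 5.87 in nonarthritic pools. It rose 2.49-fold (log2 fold change 1.31 ± 0.23 SE, limma adjusted p = 0.00836), a call lost when any pool was left out. Its neighbour H2ac21, whose locus ends 58 bases away, read 8.38 and 9.23 in arthritic pools, against 8.32 and 7.86 in nonarthritic pools. For H2ac21 the lowest arthritic signal was barely above the highest nonarthritic signal, and the difference of 0.71 did not pass (limma adjusted p = 0.14). A dimmer second probe set of H2ac21 gave 0.21.

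The remaining H2A genes did not pass. H2ac1, a testis-type H2A gene, had a log2 fold change of 0.47 ± 0.20 SE (limma adjusted p = 0.159). H2ac12 read 3.45 and 3.53 in arthritic pools, against 3.36 and 3.52 in nonarthritic pools. These H2ac12 signals lie under the olfactory receptor medians on every array, so neither a level nor a change is shown by that probe set.

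The H2B genes gave both directions. H2bc12 read 9.54 and 10.17 in arthritic pools, against 7.33 and 6.82 in nonarthritic pools, and rose 6.87-fold (log2 fold change 2.78 ± 0.25 SE, limma adjusted p = 0.000471). H2bc18 read 8.84 and 9.21 in arthritic pools, against 8.12 and 7.44 in nonarthritic pools, a rise of 2.37-fold (limma adjusted p = 0.0132). H2bc3, the H2B gene with the most even pools, read 10.27 and 10.17 in arthritic pools, against 9.42 and 9.31 in nonarthritic pools, and rose 1.81-fold (limma adjusted p = 0.00957). The groups of these 3 genes did not overlap. Their calls were lost without arthritic pool 2 or nonarthritic pool 2, those of H2bc18 and H2bc3 also without arthritic pool 1, and that of H2bc3 also without nonarthritic pool 1.

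H2bc21 moved the other way. It read 6.97 and 6.72 in arthritic pools, against 7.97 and 8.11 in nonarthritic pools, with both arthritic pools below both nonarthritic pools. H2bc21 fell by 1.20 ± 0.17 SE on the log2 scale, a 2.29-fold lower signal (limma adjusted p = 0.00303), and its arthritic signals were near the olfactory receptor 95th percentiles. In mouse this gene encodes an H2B variant known from olfactory neurons and made outside DNA replication. Its annotated locus spans 2667 bases, where 24 of the 26 loci span 384 to 794 bases and that of H2bc22 spans 14079. The call of H2bc21 was kept without nonarthritic pool 1 and lost without any other pool.

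Of the H2B genes that did not pass, H2bc14 read 5.49 and 5.07 in arthritic pools, against 4.86 and 5.12 in nonarthritic pools, and its groups overlapped. H2bc9 read 6.93 and 6.80 in arthritic pools, against 6.94 and 6.64 in nonarthritic pools, likewise with overlap. H2bc1, the testis-type H2B gene, read 3.58 and 3.32 in arthritic pools, against 3.43 and 3.70 in nonarthritic pools, under the olfactory receptor medians. H2bc22 had a log2 fold change of -0.01 ± 0.18 SE with overlapping groups.

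Histone H4 genes encode the same protein from differing untranslated ends. H4c9 read 8.12 and 8.15 in arthritic pools, against 6.01 and 6.66 in nonarthritic pools, and rose 3.48-fold (log2 fold change 1.80 ± 0.22 SE, limma adjusted p = 0.0017). H4c17 read 6.69 and 6.80 in arthritic pools, against 5.17 and 5.27 in nonarthritic pools, a rise of 1.52 ± 0.16 SE on the log2 scale (limma adjusted p = 0.00076). All 4 signals of H4c17 lay under the olfactory receptor 95th percentiles, so no fold is given for it. H4c14 read 7.00 and 6.93 in arthritic pools, against 6.38 and 6.05 in nonarthritic pools, a rise of 0.75 ± 0.17 SE on the log2 scale (limma adjusted p = 0.0246). For H4c14, 3 of the 4 signals lay under those percentiles, so no fold is given either. No groups overlapped among these 3. The call of H4c9 was lost without either arthritic pool, that of H4c17 without arthritic pool 2 (limma adjusted p = 0.062), and that of H4c14 without any pool.

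H4c12 read 12.56 and 12.80 in arthritic pools, against 12.47 and 12.18 in nonarthritic pools. Its groups did not overlap, and the log2 fold change of 0.35 ± 0.18 SE did not pass (limma adjusted p = 0.238). H4c1 had a log2 fold change of 0.06 ± 0.16 SE. H4c8 read 3.57 and 3.76 in arthritic pools, against 3.84 and 3.67 in nonarthritic pools. Both H4c1 and H4c8 overlapped between groups, and H4c2 had a log2 fold change of -0.04 ± 0.15 SE at signals of 3.94 to 4.02.

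**Figure D2:**
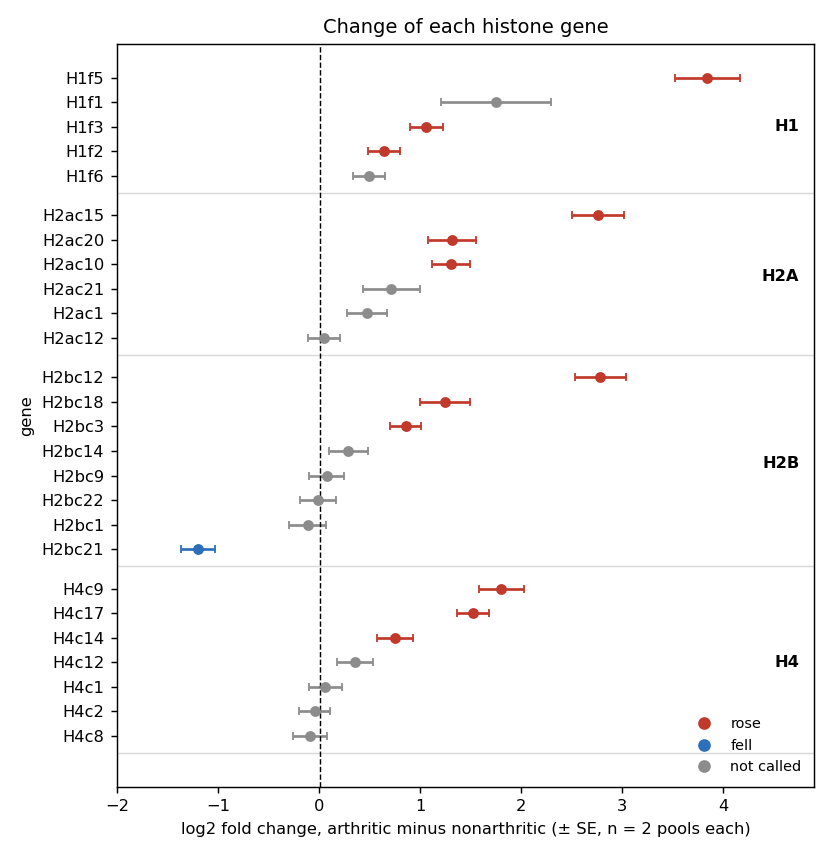
Log2 fold change (arthritic minus nonarthritic) with its SE from limma for the 26 histone genes, by histone type (n = 2 pools in each group). Red marks the 12 genes that rose, blue H2bc21, which fell, and grey the 13 that did not pass; the dashed line is the median of all genes, 0.005.

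Several members lie close together. H2ac20 and H2bc21 on chromosome 3 are 191 bases apart, and H2ac20 rose while H2bc21 fell. H2ac12 and H2bc12 on chromosome 13 are 177 bases apart on opposite strands; H2bc12 rose by 2.78, and the probe set of H2ac12 stayed at the bottom of the scale. H2bc1 and H2ac1 are 280 bases apart, and neither passed. The bases between the genes of the first pair and of the second are shown because H2A and H2B genes are often paired head to head around a shared promoter. The table used gives no strand for H2bc21. They come from RefSeq (GRCm38.p6) and are printed 5′ to 3′ along the named gene, for H2bc12 at chr13:22035644-22035820 on the plus strand and for H2ac20 at chr3:96220881-96221071 on the minus strand. Capitals mark matches on either strand to the CCAAT box, the TATA box and the octamer, which is spelled ATTTGCAT.
H2bc12: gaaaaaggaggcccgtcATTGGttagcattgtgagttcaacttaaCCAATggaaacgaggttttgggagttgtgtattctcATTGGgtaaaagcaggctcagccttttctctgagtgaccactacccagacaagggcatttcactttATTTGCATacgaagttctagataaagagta
H2ac20: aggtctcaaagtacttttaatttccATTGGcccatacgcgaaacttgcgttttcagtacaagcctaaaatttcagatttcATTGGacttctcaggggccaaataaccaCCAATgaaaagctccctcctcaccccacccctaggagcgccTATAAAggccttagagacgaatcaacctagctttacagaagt
The space beside H2bc12 held 3 CCAAT boxes and an octamer that began 30 bases before its start. That beside H2ac20 held 3 CCAAT boxes and a TATA box that began 42 bases before its start, and an octamer match lay just beyond it, in the first bases of the annotated H2bc21 locus.

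Windows from 250 bases before to 50 after the start were given for 24 of the 26 members, all but H2bc21 and H4c14. On either strand, the CCAAT box was in 19 of the 24, among them 1 of 6 H4 windows, and in 37.4% of all 32851 windows of that table. The TATA box was in 16 and in 13.6% of all windows. The octamer was in 5 of 7 H2B windows and 3 of 6 H2A windows, in none of the H1 or H4 windows, and in 1.74% of all windows. The H1 box was in 4 of 5 H1, 1 of 6 H2A, 2 of 7 H2B and 0 of 6 H4 windows, and in 7.18% of all windows. Among windows of genes that rose, against those of genes that did not pass, the CCAAT box was in 9 of 11 against 10 of 13, the TATA box in 8 of 11 against 8 of 13, and the octamer in 4 of 11 against 4 of 13. For the H1 box the counts were 3 of 11 against 4 of 13. A match describes letters and shows no binding.

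By position, the 26 fell into 3 stretches. On chromosome 13, 9 members between 21722044 and 22041362 had 5 rises and a median log2 fold change of 1.52, and 12 members between 23531044 and 23934913 had 4 rises and a median of 0.48. On chromosome 3, 5 members between 96219885 and 96270192 had 3 rises, 1 fall and a median of 0.75. Over all genes 8.72% rose and 6.62% fell. Of the 21 members on chromosome 13, 13 had a mean not above 6.98, as had 2 of the 5 on chromosome 3. The medians therefore include members that read close to background. No test between these stretches was made.

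Another 37 probe sets carry several gene symbols with at least 1 histone symbol among them, 3 of them with values identical to another, which leaves 34. They were fitted with all genes, after their values had been seen, and 20 of the 34 rose and 0 fell, where 8.82% of all features in that fit rose and 6.67% fell. At an unadjusted p under 0.05, 0 of the 34 fell in limma, and 30 of the 34 had both arthritic pools above both nonarthritic pools. By type, 5 of 9 H2A, 6 of 7 H2B, 4 of 12 H3 and 4 of 5 H4 probe sets rose, as did 1 shared by H1f4 and H2B genes. An H3 probe set that rose read 3.84 and 4.39 in arthritic pools, against 3.39 and 3.29 in nonarthritic pools. These signals lay under the olfactory receptor median on every array. Another read 4.47 and 4.98 in arthritic pools, against 3.79 and 4.08 in nonarthritic pools, above that median only in arthritic pool 2. Such signals show little of a level or a change. Rises of H2A, H2B and H4 also included probe sets with every signal in the olfactory receptor range. The 34 probe sets cannot be assigned to a gene, and those of a type share targets, so they are not separate evidence for each gene.

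H3 is seen only this way. A probe set shared by 8 H3 genes read 10.50 and 10.41 in arthritic pools, against 9.79 and 9.64 in nonarthritic pools, a rise of 0.74 ± 0.16 SE on the log2 scale (limma adjusted p = 0.0177). Another of the same 8 genes, named like the first after the values were seen, read 6.82 and 7.19 in arthritic pools, against 5.73 and 5.68 in nonarthritic pools (log2 fold change 1.30 ± 0.18 SE, limma adjusted p = 0.00267). The median over the 12 H3 probe sets was 0.48, with a range of -0.11 to 1.30. The largest change among all shared probe sets was of 10 H2A genes, at 8.66 and 9.20 in arthritic pools, against 5.32 and 4.65 in nonarthritic pools.

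**Figure D3:**
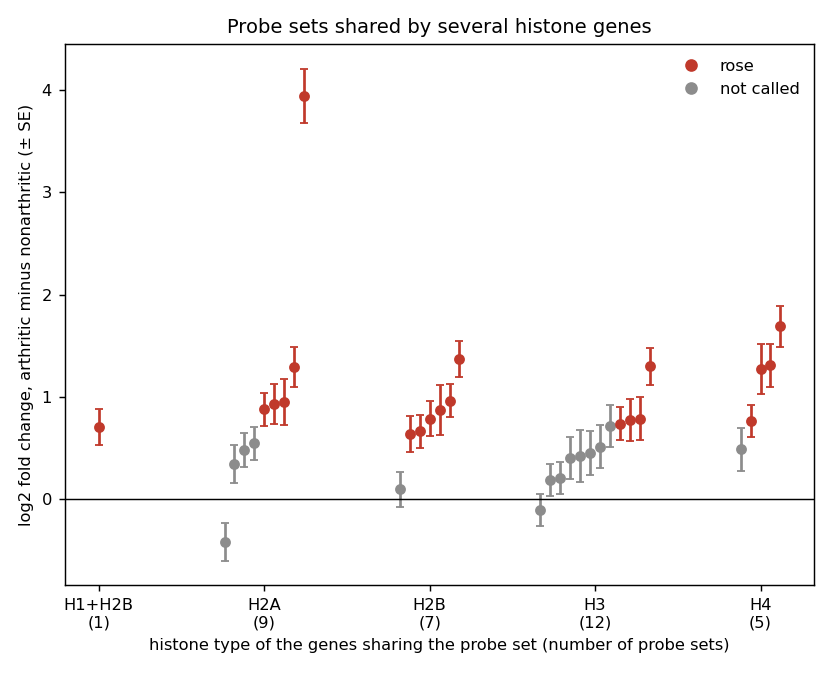
Log2 fold change (arthritic minus nonarthritic) with its SE from limma for 34 distinct probe sets that several histone genes share, by histone type (n = 2 pools in each group). Red marks the 20 that rose and grey the 14 that did not pass; an H2A probe set at 3.94 stands above the rest, and the 12 of H3 run from -0.11 to 1.30.

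Genes of cell division rose alongside, where 8.72% of all genes rose and 6.62% fell. Of 21 mitosis and proliferation genes measured, 21 rose, with a median log2 fold change of 1.64; the mitotic kinases Cdk1 and Plk1 stood at 2.51 and 2.37, the mitotic kinesin Kif20a at 2.31, the topoisomerase Top2a at 2.07 and the proliferation marker Mki67 at 1.65. Of 42 DNA replication genes 28 rose and 0 fell in limma (median 0.77). At an unadjusted p under 0.05 in limma, 35 rose and 0 fell. Cyclin A2, Ccna2, rose most (2.17), then the ubiquitin ligase adaptor Dtl (1.79), the helicase subunit Mcm5 (1.67) and the clamp loader subunit Rfc2 (1.51). Pcna, the sliding clamp, was at 0.05 ± 0.21 SE. Of 7 inhibitors of cyclin-dependent kinases 0 rose in limma (1 at an unadjusted p under 0.05) and 1, Cdkn1a (-0.91), fell. Counts this small in 7 genes cannot be told from the shares over all genes. Leaving out the pools one at a time left 0 to 18 rising mitosis genes and 0 to 11 rising DNA replication genes, 0 of each without arthritic pool 2.

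Genes that make and load histones were called in both directions. Over all genes 8.72% rose and 6.62% fell. Among genes with a mean above 6.98, 17% rose and 11.5% fell in their own fit. All but 1 of the processing genes were that bright, and the 20% of them that rose is near the share of the brighter genes. Of 15 histone mRNA processing genes 3 rose and 1 fell (median 0.26): Lsm10, of the ribonucleoprotein that cuts histone pre-mRNA, rose by 0.97, the decay factor Upf1 by 0.74 and the scaffold Sympk by 0.66 on the log2 scale, and Casp8ap2, which is needed for histone transcription in dividing cells, fell by 0.66. Slbp read 9.15 and 9.53 in arthritic pools, against 9.20 and 8.91 in nonarthritic pools, with overlap (log2 fold change 0.28 ± 0.19 SE). Npat was at 0.04 ± 0.17 SE. Of 20 histone chaperone genes 6 rose and 1 fell (median 0.24). Among them the replication-linked chaperones Asf1b and Chaf1b rose by 1.27 and 1.12, and the importin Ipo4 by 1.06, while Asf1a fell by 0.70. Mms22l, of a replication fork complex, rose too, with 7.41 and 7.82 in arthritic pools, against 6.57 and 6.66 in nonarthritic pools.

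Replacement variants were measured for 7 of 10 genes, and 3 rose, where 8.72% of all genes did. The 4 not called were H2az1, H2az2, Macroh2a1 and Macroh2a2. H2ax, whose product marks DNA breaks, read 10.64 and 10.73 in arthritic pools, against 8.84 and 8.36 in nonarthritic pools (log2 fold change 2.08 ± 0.20 SE). Cenpa, the H3 variant of centromeres, had a log2 fold change of 1.24 and the linker gene H1f10 of 0.81. H2az1 was at 0.59 ± 0.32 SE with overlapping groups. H3f3b and H1f0 were not analysed here. Of 4 genes that carry an older cluster symbol but a name outside the rule, H4f16 rose 2.01-fold and H2af-ps2 rose by 1.03 ± 0.16 SE on the log2 scale, with all 4 signals of H2af-ps2 under the olfactory receptor 95th percentiles.

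**Figure D4:**
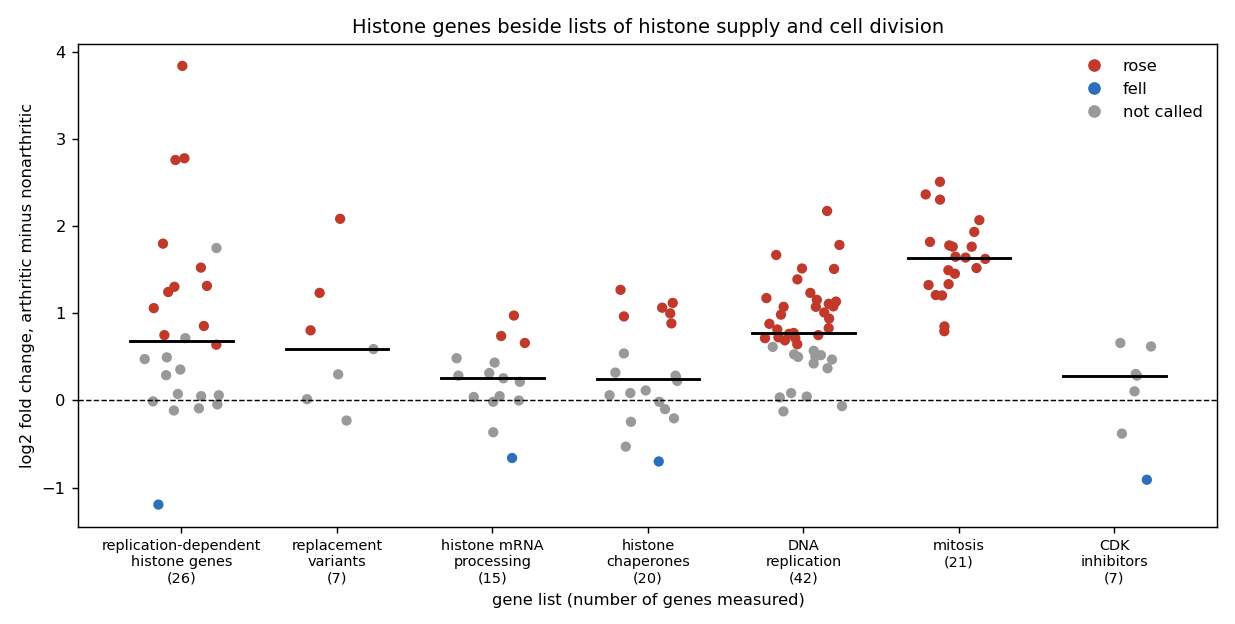
Log2 fold change (arthritic minus nonarthritic) of the 26 histone genes and of 6 lists of histone supply and cell division, with 1 point per gene, a bar at the median of each list and a dashed line at the median of all genes (0.005). The 21 mitosis genes all lie in red, with a median of 1.64, while the lists of histone mRNA processing and chaperones have medians of 0.26 and 0.24.

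Cell type markers were called in both directions. Over all genes 8.72% rose and 6.62% fell. Among genes with a mean above 6.98 the shares were 17% and 11.5% in their own fit. Lists this short with 0 or 1 call cannot be told from those shares. Of 5 mature neutrophil markers 5 rose; their summed linear signal was 9138 and 11148 in arthritic pools, against 1211 and 802 in nonarthritic pools. Of 10 markers of granulocyte precursors, dividing cells of bone marrow, 0 were called in limma (2 at an unadjusted p under 0.05), and their sum was 1015 and 1216 in arthritic pools, against 815 and 1136 in nonarthritic pools. Of 5 red cell precursor markers 1, Sptb, fell, and their sums were 500 and 581 in arthritic pools, against 681 and 756 in nonarthritic pools. Sptb itself read 7.07 and 7.19 in arthritic pools, against 7.95 and 8.15 in nonarthritic pools. Means of 8 of the 10 granulocyte precursor markers and 3 of the 5 red cell precursor markers were not above 6.98. These 2 lists can therefore show little of a change. Of 6 synovial fibroblast markers 4 rose, among them Cdh11 and Pdpn, with sums of 39185 and 41181 in arthritic pools, against 32053 and 29524 in nonarthritic pools. Skeletal muscle markers fell in 5 of 5 cases, with sums of 2870 and 1866 in arthritic pools, against 14599 and 20073 in nonarthritic pools, and adipocyte markers fell in 3 of 3, with sums of 762 and 605 in arthritic pools, against 6336 and 5513 in nonarthritic pools. Of 4 macrophage markers 2 rose, of 5 chondrocyte markers 2 rose and 1 fell, of 3 endothelial markers 1 rose, of 3 B cell markers 2 fell, and of 4 T cell markers 0 were called in limma (1 at an unadjusted p under 0.05). The 4 germ cell markers measured were not called and lay in the olfactory receptor range. The part of these shifts in the histone values was not tested.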

How the data were processed

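Values are the log2 signals the authors deposited, 1 per probe set and array, from 4 Affymetrix MoGene 2.0 ST arrays (500 ng total RNA each). The submitters' processing notes name RMA, Affymetrix Power Tools and Affymetrix Expression Console, with roles and versions not given in the sources used here. RMA in general subtracts background, normalizes the arrays and combines the probes of a probe set. The log2 scale was read from the range of values, 2.89 to 14.27.

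Of 41345 probe sets, 23521 had 1 symbol, 1814 several and 16010 none in the platform table. Each gene kept its 1-symbol probe set with the highest mean, which left 22180 genes. Groups were compared with limma 3.58.1 (lmFit, eBayes, 2-sided, no block, 2 residual and 5.98 prior degrees of freedom) in R 4.3.3. The same fit was also run on simulated data, whose means and variances were taken from the fit to these data. Nothing says that the 2 pools of a group came from separate experiments beyond the design text, which calls them biological replicates. Each p-value sets a difference against the variance between pools, drawn toward that of all genes, and not against the variance between mice. The fit assumes the same variance for pools of 10 mice and pools of 3. The number of arrays limits the precision, and no batch labels were given. Positions and promoter windows are RefSeq's (GRCm38.p6).

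Every called member was named, with array values for these and, per histone type, for uncalled members of highest mean, largest and smallest change; in the lists of histone supply and cell division, up to 4 called genes in each direction were named by largest change, and Slbp, Npat, Mki67, Pcna, H2az1, H3f3b and H1f0 whatever their values. Cell type lists are given mainly by counts and sums. Of 184 genes in 18 lists, 15 were not analysed here. Members and lists were chosen with earlier results of these data known.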

Additional observations from a re-analysis of the deposited data

How the results depend on the processing

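With the arrays centred on their medians, 5 H1 genes rose, against 3 as reported. With dim genes left out, 11 histone genes were tested: 7 rose, of which 1 each was of H2A and H4. Adding probe sets shared by histone genes gave 28 rising histone features, or 34 when any symbol sufficed, which was chosen after seeing the data; identical probe sets are counted apart in both. No label ties the pool numbers to shared mice, a day or a batch (correlation of pool differences between groups 0.18). With the replicate block 1216 genes rose in all, among them 8 histone genes, 17 DNA replication genes and 1 histone mRNA processing gene, and H1f2, H2ac20, H2bc18 and H4c14 lost their calls. The other alternatives, quantile normalization again, a trended or robust prior and the mean of probe sets, kept the 12 rises. Without each pool in turn, 47 to 637 genes rose and 105 to 584 fell over all genes, and 1 to 7 histone genes rose and 0 to 1 fell. By type, 0 to 2 of H1, 0 to 2 of H2A, 0 to 2 of H2B and 0 to 2 of H4 rose. Of the lists, 0 to 11 DNA replication, 0 to 18 mitosis, 0 to 2 chaperone, 0 to 0 processing and 0 to 2 replacement variant genes rose. The cause of the fewer calls was not tested, since leaving out a pool changes both the number of pools and which pools remain. No called histone gene changed sign under any alternative run. Signals in the olfactory receptor range limit what the 15 dimmer histone genes can show.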
